A study of Arabidopsis thaliana with 4 samples.

Results

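Poly(A) sites that lie less than 25 nt from another poly(A) site of the same gene were described here. In the in vivo table of nuclear SHAPE reactivities, each row is a window of 100 nt around a poly(A) site. A site was taken as clustered when the nearest other window of its gene started 1 to 24 nt away. This rule uses coordinates and no reactivity, and it found 3526 windows of 1164 genes, among 6605 windows of 3338 genes in all. The other windows were 1161 windows of 699 genes whose nearest site lay 25 to 99 nt away, 86 windows of 61 genes with a nearest site 100 nt or more away, and 1832 genes with a single window. A gene may have sites in more than 1 of the first 3 classes.

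The material was nuclear RNA of Arabidopsis thaliana Col-0 seedlings, 5 days old, of which whole seedlings were used, so all cell types of the seedling are pooled. In the deproteinized condition, NAI at 100 mM was added for 15 min to nuclear RNA after lysis of the nuclei and removal of proteins. In the in vivo condition the same concentration and time were applied to intact seedlings before nuclei were isolated. Each condition has 1 (+)SHAPE sample with NAI and 1 (-)SHAPE sample without it. NAI acylates the ribose of flexible nucleotides, reverse transcription stops beside the adduct, and the authors turned these stops into 1 reactivity profile per condition. Reactivity is a score between 0 and 2 with no physical unit. The replicates had been merged, so there is no spread between samples and no test. Means are given with the SD over genes, and the windows of a gene were averaged first, because the windows of a cluster share most of their nucleotides. The tables hold no expression levels, so the tissue could not be checked against marker genes, and the depth behind a score is unknown.

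Plant mRNAs are cleaved at a poly(A) site by the cleavage and polyadenylation complex, and a poly(A) tail is added to the new 3′ end. The sequences that guide the complex in plants are a far upstream element rich in U and G, an A-rich near upstream element of which AAUAAA is the best known form, and a U-rich cleavage element around a pyrimidine followed by A. Plant genes commonly use several cleavage sites a short distance apart, so that the transcripts of a gene end at a cluster of positions.

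The clusters were short runs of a few sites. Runs of members with gaps of at most 24 nt gave 1305 clusters, of which 783 held 2 sites, 302 held 3 sites and 220 held 4 or more. The median span of a cluster was 19 nt and the longest was 149 nt. Of the 1164 genes, 627 had 2 clustered sites (53.9% of them), 240 had 3, 131 had 4 and 166 had 5 or more. Among the 2221 gaps between neighbours the median was 13 nt, with quartiles of 9 and 18 nt, and no gap was under 4 nt anywhere in the table. The limit of 24 nt does not fall in a natural break, since 495 windows had their nearest site at 20 to 24 nt and 281 windows at 25 to 29 nt.

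**Figure D1:**
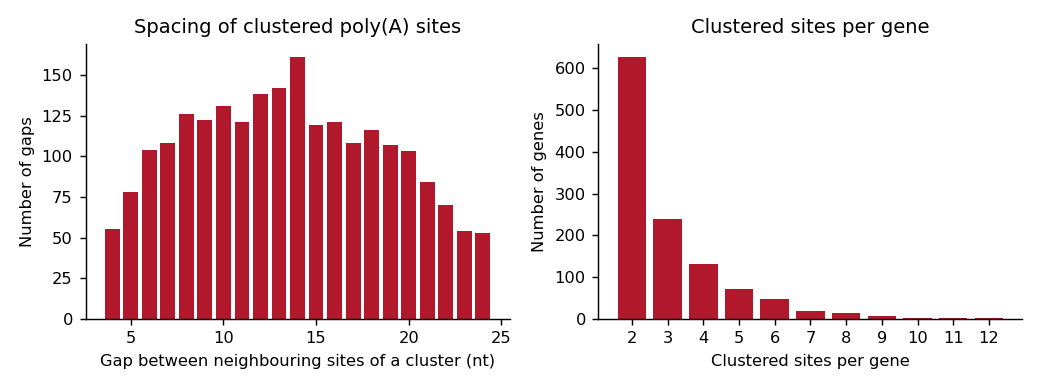
Left, number of gaps between neighbouring sites of a cluster against the gap in nt. Right, number of genes against the number of clustered sites per gene. Gaps run between 4 and 24 nt with a median of 13 nt, and 627 of 1164 genes have 2 clustered sites.

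Nearly all clustered sites lay in annotated 3′ UTRs. A gene model of TAIR10.1 was found for 3524 of the 3526 windows, and in it 3329 sites (94.5%) fell in a 3′ UTR, 156 (4.43%) beyond the annotated 3′ end, 32 (0.908%) in an untranslated exon inside the coding span of another isoform and 7 (0.199%) in coding sequence. Sites of single-site genes were placed in the same way, with 93.4% in a 3′ UTR. The clustered sites lay a median of 121 nt before the annotated gene end (quartiles 58 and 219 nt), against 107 nt for single sites (quartiles 43 and 198 nt).

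The stretches below show what a dense cluster looks like. They come from the 6 genes with the most clustered sites, read 5′ to 3′ on the transcript strand from the RefSeq TAIR10.1 genome. Each is 30 nt long, begins a few nt before a site and holds the most sites of such stretches in its gene. Another start could take in more, as in UBL5, whose next site at 16912447 lies just outside. Capitals mark the poly(A) nucleotides, taken as nucleotide 51 of each window and called position 0. The site list of the study points to nucleotide 50 on the plus strand, and on the minus strand its coordinates lie outside the windows, so the exact nucleotide of position 0 is uncertain. With nucleotide 50 as the site the capitals would move by 1 base to the left, and the excess of -4 to +1 over the flanks described below was 0.0149 in place of 0.0252.
TCTP (AT3G16640, chr3:5669411-5669440, minus strand): cccGaaucucgaggcAuguuUauagUagau
LHCB4.1 (AT5G01530, chr5:210355-210384, plus strand): gacAuuaaauugggcuucuccuUauuuacU
ACT2 (AT3G18780, chr3:6477184-6477213, plus strand): guuAuuagucuuAcuuuugcuAccucCauc
HOG1 (AT4G13940, chr4:8056972-8057001, plus strand): gcaUcccaguguuagcgAcuuuuguuGaau
UBL5 (AT5G42300, chr5:16912449-16912478, minus strand): uguCaaugguuuUaaacccuuCcaaauugu
AT2G10940 (chr2:4310477-4310506, minus strand): uauAuauuuuucguAuuaguUgaacgacAa
Sites of a cluster thus stand in different contexts, some inside U-rich stretches and some not, and the poly(A) nucleotide itself can be any of the 4 bases.

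The base composition around clustered sites was U-rich before the site and A-rich for a few nucleotides after it. At position -1, U made up 43.7% and C 26.5% of 3524 windows. At position 0, U made up 34.3% and A 33.4%. At position +1, A made up 59.1%, at +2 52.1% and at +3 40.8%. At +4, A fell to 30.8%, below U with 37.2%. A pyrimidine at 0 followed by A at +1 was present in 34.5% of windows (95% Wilson interval 33 to 36.1%), and a pyrimidine at -1 followed by A at 0 in 25.8% (24.4 to 27.3%). In the flanks of the same windows, 14% of dinucleotides were a pyrimidine followed by A. Single-site genes had 34.5% (32.3 to 36.7%) and 24.9% (23 to 26.9%) at the same places. With 1 window per gene, the pyrimidine at 0 followed by A was found at 38.8% of 5′-most sites (36 to 41.6%) and 31.9% of 3′-most sites. At least 6 U among the 10 nt of -10 to -1 were found in 24.7% of clustered windows (23.3 to 26.2%), against 32.2% of single-site windows (30.1 to 34.4%). With 1 window per gene the share was 29.6% at 5′-most sites (27 to 32.3%), which overlaps the interval of the single sites, and 25.6% at 3′-most sites. At least 6 A among the 10 nt of +1 to +10, from which an oligo(dT) primer can start inside a transcript, followed 13.1% of clustered sites (12 to 14.2%) and 13.6% of single sites (12.1 to 15.3%). Windows of a cluster overlap, so these intervals cover counting error only and are too narrow for the clustered class.

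In vivo, clustered sites were slightly more reactive than their surroundings in both regions that the study had chosen on these data. These regions run from -4 to +1, across the cleavage site, and from -28 to -17, where the near upstream element lies. Across 1164 genes, the score averaged 0.795 ± 0.164 in -4 to +1 and 0.796 ± 0.133 in -28 to -17, against 0.770 ± 0.0793 in the flanks (SD over genes). The flanks are the nucleotides of the window outside both regions and at least 2 nt away from them. The difference from the flanks was 0.0252 ± 0.159 for -4 to +1, with a median of 0.0105 and quartiles of -0.0837 and 0.116. It was 0.0258 ± 0.137 for -28 to -17, with a median of 0.0210 and quartiles of -0.0616 and 0.103. At the poly(A) nucleotide alone the difference was 0.0439 ± 0.356, with a median of 0.00568. The differences between genes were therefore several times larger than the mean shift.

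The direction was divided between genes. The score of -4 to +1 lay above the flanks in 627 of 1164 genes (53.9%), where 52.2% of all 3338 genes did so. For -28 to -17 the count was 662 of 1164 (56.9%), against a background of 56% of all genes. For the poly(A) nucleotide it was 592 of 1164 (50.9%), against 46.1% of all genes. The shares for both regions were near the background, and nothing is read from them about clustered sites. Nothing is read from the share at the poly(A) nucleotide either, because many genes of the background have a single window and no averaging. Within a gene the sites also differed, since 198 genes had all their sites above the flanks in -4 to +1, 203 had all below and 763 had sites on both sides. The median SD among the sites of a gene was 0.203.

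Averaged over genes, the highest positions lay at the cleavage site, with positions of the upstream region nearly as high. The SE over genes was 0.0104 at position 0 and 0.0103 at -19. Among the 100 positions of the window, the highest means were at -1 (0.829 ± 0.358), 0 (0.814 ± 0.356) and +1 (0.813 ± 0.357, SD over 1164 genes). The next were -19 (0.811), -24 (0.808), -17 (0.808) and -20 (0.807), and position +2 had 0.807. The lowest means stood next to the cleavage site, at -6 (0.742) and +6 (0.748). Single-site genes had the same leading position, -1 (0.847 ± 0.558, n = 1832 genes), followed by -19 (0.840) and 0 (0.835), with the lowest mean at -5 (0.729). SDs are larger there because only 1 window stands for a gene.

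**Figure D2:**
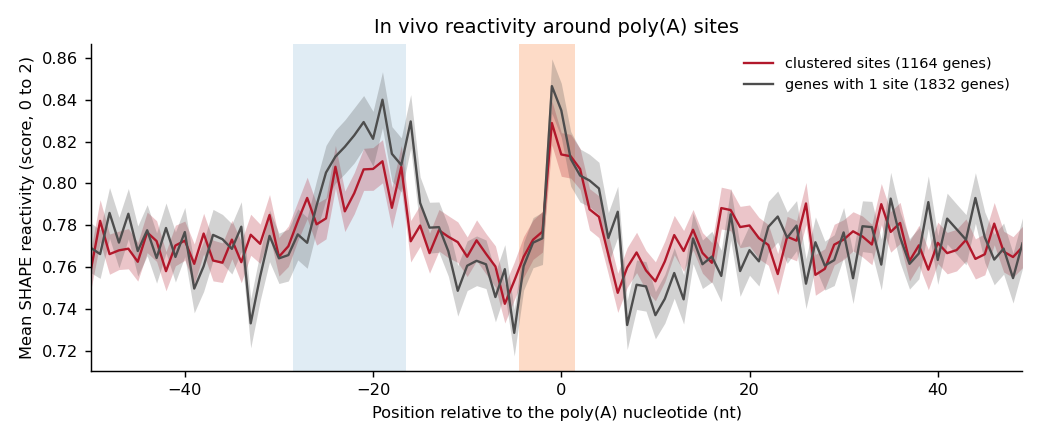
Mean in vivo SHAPE reactivity (score) against position relative to the poly(A) nucleotide, for clustered sites (1164 genes) and genes with 1 site (1832 genes). Bands are the SE over genes, blue shading is -28 to -17 and orange shading -4 to +1. Both curves have their highest mean at -1, 0.829 for clustered sites and 0.847 for genes with 1 site.

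Counted over clustered windows, which overlap, both ends of the scale were more common at the cleavage site than in the flanks. At -1, 24.1% of clustered windows reached a score of 1.2 or more, at 0 22.7% and at +1 22.7%, against 19.1% of flank nucleotides. The maximum score of 2 was reached by 7.80% of windows at -1, 7.12% at 0 and 8.45% at +1, against 5.90% of flank nucleotides. The lowest score of 0 was also more common at these positions, with 5.96%, 6.10% and 6.30% against 4.93%. In single-site genes, with 1 window per gene, the share of 0 was 5.19%, 4.97% and 6.55% against 4.92%. It was thus close to the flanks at position 0. Their share of the maximum was 7.53%, 8.30% and 7.64% against 5.76%. Each window also has a recurring score, a value shared by many of its nucleotides, which filled a median of 23 of the 100 nucleotides of a clustered window. The recurring score was less common at the cleavage site of clustered windows (17% at -1, 17.6% at 0 and 18.8% at +1) than in their flanks (23.9%).

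The excess at -1 was seen for each of the 4 bases when counted over windows. The means of single bases here are over windows, which overlap within a cluster, and have no count of genes. In the flanks of clustered windows the mean score was 0.827 for A, 0.780 for U, 0.746 for G and 0.681 for C. At -1 all 4 bases scored above their own flank mean, by 0.0678 for A, 0.0404 for C, 0.0995 for G and 0.0935 for U. At 0 the excess was 0.00910 for A, 0.0502 for C, 0.0748 for G and 0.0516 for U. At +1, where A dominates, the excess was 0.0287 for A, 0.00611 for C, -0.00302 for G and -0.00421 for U. After the flank mean of the same base had been subtracted, the gene averages were 0.0729 at -1, 0.0421 at 0 and 0.0183 at +1 (SD 0.355, 0.355 and 0.356, n = 1163 genes). With the same adjustment -4 to +1 exceeded the flanks by 0.0288 ± 0.156 and -28 to -17 by 0.0211 ± 0.135 (SD, n = 1163 genes).

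Clustered sites were set beside the other classes with the same measures. The excess of -4 to +1 was 0.0252 ± 0.159 for clustered sites, 0.0401 ± 0.225 for sites 25 to 99 nt apart, -0.0315 ± 0.238 for sites 100 nt or more apart and 0.0321 ± 0.251 for single-site genes (SD, n = 1164, 699, 61 and 1832 genes). In -28 to -17 it was 0.0258 ± 0.137, 0.0551 ± 0.178, 0.0912 ± 0.246 and 0.0413 ± 0.210 in the same order of classes. At the poly(A) nucleotide it was 0.0439 ± 0.356, 0.0941 ± 0.478, -0.0127 ± 0.484 and 0.0672 ± 0.556. The share of genes above the flanks in -4 to +1 was 53.9% for clustered sites, 53.2% for sites 25 to 99 nt apart, 44.3% for sites 100 nt or more apart and 49.7% for single-site genes. For -28 to -17 the shares were 56.9%, 60.1%, 65.6% and 53.4% in that order, and for the poly(A) nucleotide 50.9%, 50.2%, 42.6% and 40.6%. The clustered mean was lower than those of the single-site genes and of the sites 25 to 99 nt apart in all 3 measures, but with medians in place of means it was above the single-site genes in all 3 measures. The medians were 0.0105 for clustered and -0.00127 for single sites in -4 to +1, 0.0210 and 0.0192 in -28 to -17, and 0.00568 and -0.119 at the poly(A) nucleotide. Against sites 25 to 99 nt apart, the clustered median was lower in both regions (0.0202 and 0.0398 for those sites) and higher at the poly(A) nucleotide (0.000332). No test of these differences was possible with 1 merged profile. The averaging of several windows per gene narrows the SD of the clustered class. Where single scores are skewed, averaging also draws the median towards the mean. At the poly(A) nucleotide the single-site mean was 0.0672 and the median -0.119. The medians and the shares above the flanks are therefore not directly comparable between classes, and no order of the classes is read from them. The recurring score filled a median of 23 nucleotides of clustered windows and 30 of single-site windows. The part of the averaging and of the recurring score in the differences was not tested.

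A window of a clustered site also holds the poly(A) nucleotides of its neighbours, so each site is read again in the windows of its neighbours. Over 1163 genes, the window's own poly(A) nucleotide averaged 0.814 ± 0.356, those of the other sites in the same window within 24 nt 0.811 ± 0.359, and nucleotides in the same range more than 2 nt away from any site 0.770 ± 0.0945 (SD over genes). The other sites exceeded the nucleotides at no site by 0.0411 ± 0.366, beside 0.0443 for the own site. Each of these other sites is also the own site of an overlapping window, and such windows hold nearly the same scores. The match was therefore built in, and nothing is read from it. The median excess of the other sites was -0.0109, and they were higher in 570 of 1163 genes (49%), so the mean rests on the upper part of the distribution. After the base adjustment the mean excess of the other sites was 0.0406 ± 0.365.

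The mean excess of the neighbour was smallest at the shortest distance, but the differences between distances were small beside the spread over genes and were not tested. Neighbours 4 to 9 nt away scored 0.771 ± 0.371 against 0.770 ± 0.0941 for nucleotides at no site (SD, n = 457 genes). At 10 to 14 nt the values were 0.806 ± 0.388 and 0.775 ± 0.0875 (n = 550), at 15 to 19 nt 0.826 ± 0.378 and 0.767 ± 0.0907 (n = 525), and at 20 to 24 nt 0.818 ± 0.378 and 0.766 ± 0.0888 (n = 458). The median excess was -0.0645 at 4 to 9 nt, with the neighbour higher in 43.8% of genes, and -0.0302 at 10 to 14 nt, with 47.5%. It was 0.0111 at 15 to 19 nt (50.7%) and 0.0145 at 20 to 24 nt (51.7%). The neighbour is a single score or a few, set against the mean of many nucleotides. No direction is therefore read from these medians and shares.

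**Figure D3:**
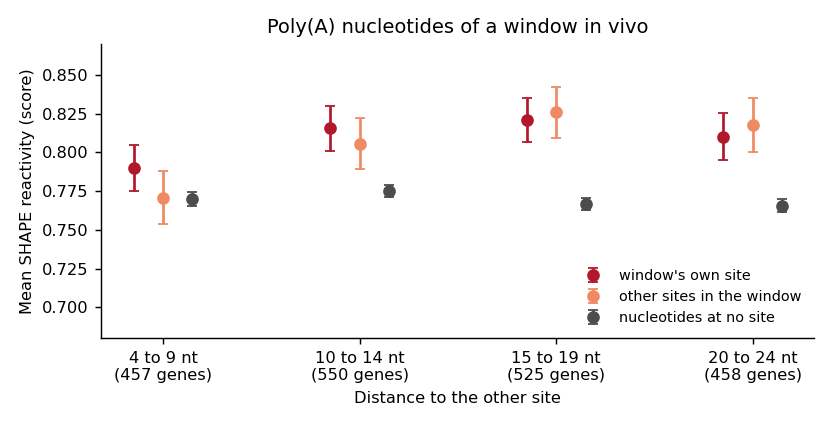
Mean in vivo SHAPE reactivity (score) of the window's own poly(A) nucleotide, of the other poly(A) nucleotides in the window and of nucleotides at no site, by distance to the other site in nt. Points are means over genes and bars the SE over genes, and the vertical axis does not start at 0. The other sites lie at 0.771 for 4 to 9 nt and between 0.806 and 0.826 for the wider distances.

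The region across the site was read by spacing in the same way. Sites whose nearest neighbour lay 4 to 9 nt away had a difference from the flanks of -0.000328 ± 0.175 in -4 to +1 (SD, n = 458 genes). Of these genes 221 (48.3%) lay above 0. At 10 to 14 nt the difference was 0.0287 ± 0.186 (276 of 524 genes above 0, 52.7%). At 15 to 19 nt it was 0.0479 ± 0.210 (240 of 432, 55.6%) and at 20 to 24 nt 0.0345 ± 0.212 (168 of 302, 55.6%). Over all 3338 genes, 52.2% lay above 0. The flanks of a close pair hold the region of the neighbour. When the regions of all other sites of the gene were left out of the flanks, the 4 values were 0.000252, 0.0313, 0.0497 and 0.0371, and after the base adjustment they were 0.00292, 0.0338, 0.05 and 0.0374. By number of sites, genes with 2 clustered sites had 0.0284 ± 0.182, genes with 3 had 0.0307 ± 0.147, genes with 4 had 0.0122 ± 0.117 and genes with 5 or more had 0.0152 ± 0.101 (SD, n = 627, 240, 131 and 166 genes).

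Within a gene the mean difference between the 5′-most and 3′-most clustered sites was small beside its spread. In the 126 genes with 2 or more clusters these sites belong to different clusters. The 5′-most clustered site had 0.0361 ± 0.253 and the 3′-most 0.0287 ± 0.271 in -4 to +1 above flanks, a difference of 0.00732 ± 0.380 (SD, n = 1163 genes), with the 5′-most site higher in 613 genes (52.7%). In -28 to -17 the values were 0.0270 ± 0.209 and 0.0320 ± 0.209, a difference of -0.00499 ± 0.287. The poly(A) nucleotide itself scored 0.825 ± 0.561 at the 5′-most and 0.826 ± 0.576 at the 3′-most site.

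The scores of overlapping windows were nearly the same data. In 2220 pairs of neighbouring windows, which share a median of 87 nt, the correlation of the 2 scores of a shared nucleotide had a median of 0.998 (5th percentile 0.979), and it was over 0.9 in all 2220 pairs. The scores of a shared nucleotide were equal within 1e-06 in 15.8% of cases. The mean absolute difference within a pair had a median of 0.0426 over pairs. Most windows hold 5 nucleotides at 0 (3518 of 3526) and 6 at 2 (3511 of 3526), so each window was scaled on its own and the level of a whole window carries no information. Clustered windows are thus not independent measurements. Reactivity differences were counted over genes, except those of single bases at -1, 0 and +1, which were counted over windows. Base composition, locations, motifs and shares of extreme scores were also counted over windows unless 1 window per gene is named.

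The genes with most clustered sites show how the sites of a single 3′ end differ. TCTP encodes the translationally controlled tumor protein, a conserved growth regulator. It had 12 sites over 142 nt, of which 5 lay above and 7 below their flanks in -4 to +1, between -0.265 and 0.249 with a median of -0.0220. Its poly(A) nucleotides ran over the whole scale, between 0 at the sites 23 and 82 nt after the first and 2 at the site 111 nt after it. The 4 sites of the stretch printed above scored 0.719 at the G, 0.950 at the A, 1.62 at the first U and 0 at the second U.

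LHCB4.1 encodes CP29, a minor antenna protein of photosystem II. Its 12 sites formed a single cluster of 149 nt, the longest of all. In -4 to +1, 8 sites lay above and 4 below the flanks, with a median of 0.0986. The highest were the sites 138 nt (0.675) and 119 nt (0.668) after the first, and the lowest was the site 42 nt after it (-0.372), whose poly(A) nucleotide had a score of 0. The gene mean was 0.115.

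ACT2 encodes a vegetative actin. Of its 11 clustered sites 9 lay below the flanks, with a gene mean of -0.143 and a median of -0.140, and the highest site reached 0.115. The poly(A) nucleotides had a median score of 0.309 and a maximum of 1.00. The flanks of its windows had a mean of 0.691, against 0.770 over all clustered genes. Each window was scaled on its own, so nothing is read from this level. Its last 2 sites lay beyond the annotated 3′ end.

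HOG1 encodes S-adenosyl-L-homocysteine hydrolase, which keeps methylation cycles running by removing their by-product. Its 11 sites ranged from -0.525 to 0.328 around a median of 0.0269, with 7 above and 4 below the flanks. UBL5 encodes a small ubiquitin-like protein. Its 11 sites ranged from -0.316 to 0.397 with a median of -0.0191, with 7 sites below the flanks. Its poly(A) nucleotides had a median score of 0.672 and a mean of 1.15, since some of them scored close to 2. AT2G10940, annotated as a lipid-transfer protein, had 10 sites between -0.360 and 0.595, and only 3 of them lay above the flanks. In that gene a mean of 36 nucleotides per window sat at the recurring score, against 16.4 in HOG1 and 9.45 in UBL5.

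**Figure D4:**
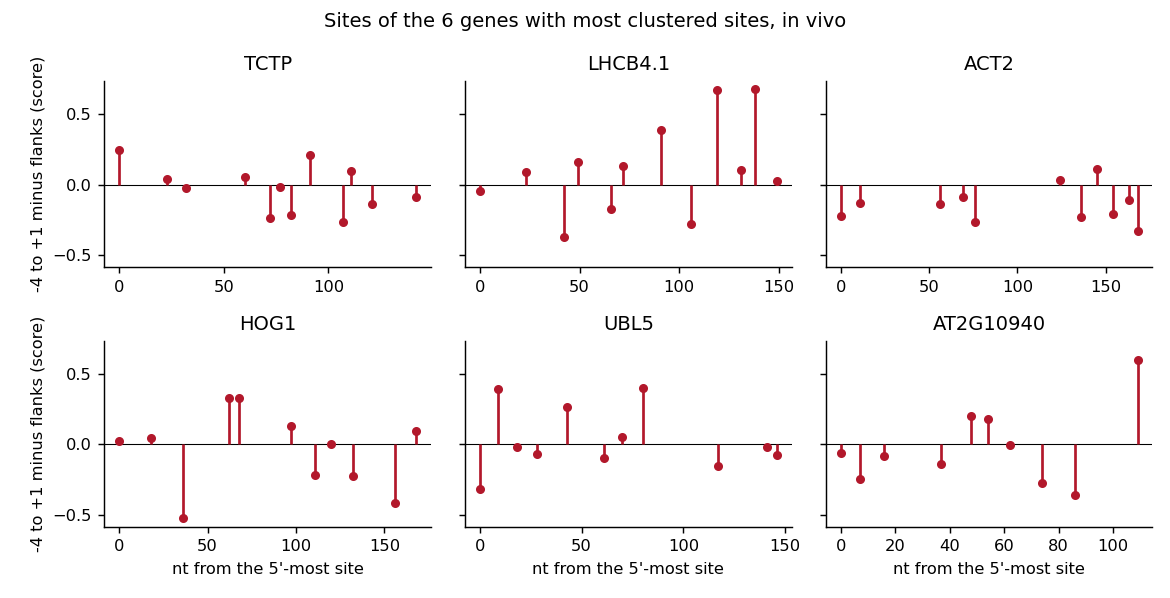
In vivo SHAPE reactivity (score) of -4 to +1 minus flanks at each clustered site of the 6 genes with most clustered sites, against the distance in nt from the 5′-most site. Each point is 1 site. ACT2 has 9 of 11 sites below 0, and the highest site of LHCB4.1 reaches 0.675.

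The ends of the distribution are given as a description, since these genes were taken for their values. The highest means of -4 to +1 minus flanks were 0.613 in ERF4, an ethylene-responsive transcriptional repressor, 0.603 in SR30, an SR splicing factor, 0.571 in TSD2, a methyltransferase family protein, 0.562 in JAL34, a lectin, and 0.534 in AT1G02160, a Cox19 family protein. The lowest were -0.457 in AT4G00030, a plastid-lipid associated protein, -0.426 in AT4G02620, a vacuolar ATPase subunit, -0.400 in AT5G26770, -0.381 in SIZ1, a SUMO ligase, and -0.380 in AT5G43920, a WD-40 repeat protein. All 10 genes had 2 clustered sites, which share part of the region when they lie close together. The cleavage sites of the highest and lowest of these genes are shown side by side, with the poly(A) nucleotides in capitals.
ERF4 (AT3G15210, chr3:5122519-5122548, plus strand): uuaUuacuAcuuguggguuguggcggcucc
SR30 (AT1G09140, chr1:2942545-2942574, minus strand): uguUaaaacUaaacuugcuuuuguuuuugg
AT4G00030 (chr4:14412-14441, plus strand): ucuCucuccuuUaucauugggccucaaaua
AT4G02620 (chr4:1149254-1149283, minus strand): augAagaagcaaugguagcuucAucugguu
The 2 sites of ERF4 had 0.915 and 0.311 above flanks, and those of SR30 0.180 and 1.03. The 2 sites of AT4G00030 had -0.481 and -0.432, and those of AT4G02620 -0.323 and -0.529.

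Clusters were found in genes of many functions, counted here by lists made from annotation keywords. Of the genes of the table, 34.9% had clustered sites, and the median of -4 to +1 minus flanks over them was 0.0105. Of these 1164 genes, 627 (53.9%) lay above the flanks, and the counts of each list stand beside this share. Clustered sites were present in 42 of 77 genes for ribosomal proteins with no organelle named in the annotation, with a median of 0.0340 and 27 genes above the flanks. Examples are AT1G02780, the L19e protein, with 8 sites and 0.0348, AT3G09200, an L10 protein, with 7 sites and 0.0849, and AT3G53430, an L11 protein, with 7 sites and 0.0685. Among translation elongation factors, 9 of 10 genes had clustered sites (median 0.0332, 6 above the flanks). Their examples are the EF1B gamma chain AT1G09640 with 7 sites and 0.0720, and AT5G60390 and AT1G07930, both annotated as EF-Tu family proteins, with 6 sites and -0.0314 and with 4 sites and -0.105.

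Histone genes had clustered sites in 5 of 6 cases (median 0.0679, 4 above the flanks), among them HTB4 with 8 sites and -0.0271. Ubiquitin genes had them in 4 of 6 cases, all 4 above the flanks with a median of 0.244, where 53.9% of all clustered genes lay above. UBQ11 had 7 sites and 0.0536, UBQ5 3 sites and 0.333, and UBQ10 3 sites and 0.341. These families have near-identical copies, and how their shared reads were placed is not known beyond the use of uniquely mapped reads. Clustered sites were present in 7 of 14 chlorophyll-binding and photosystem genes (median 0.0203, 4 above the flanks), including LHCB3 with 7 sites and -0.0164 and PSBX with 6 sites and 0.0546.

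Of the heat shock protein genes, 8 of 35 had clustered sites (median 0.0418, 6 above the flanks), for example the chaperone BIP1 with 8 sites and 0.104. Of the genes for RNA-binding proteins, 13 of 44 had them (median 0.0332, 10 above the flanks), for example PSRP2 with 6 sites and 0.0332. SR splicing factors had clustered sites in 3 of 9 genes, namely RSZ21 with 6 sites and 0.153, SR30 with 2 sites and 0.603 and SCL30 with 2 sites and -0.0432. Of 5 polyadenylation factor genes 1 had clustered sites, the nuclear poly(A) polymerase gene nPAP, with 2 sites and -0.180. No share was compared by a test, and nothing is read from these small counts about a family. The number of sites a gene can show depends on its coverage, which is not in the tables.

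The near upstream element was searched as AAUAAA on the transcript strand, lying wholly within -40 to -10. It was present in 183 of 3524 clustered windows (5.19%, 95% Wilson interval 4.51 to 5.98%), against 199 of 1827 single-site windows (10.9%, 9.54 to 12.4%). At the level of genes, 116 of 1163 (9.97%) had it before at least 1 clustered site. Taking 1 window per gene, it preceded the 5′-most site in 8.17% of genes (6.73 to 9.88%) and the 3′-most site in 4.47%. The motif AAUAAN in the same range preceded 11.2% of clustered sites (10.2 to 12.2%) and 19.2% of single sites (17.5 to 21.1%). UGUA, a tetramer of the far upstream element, was found in -50 to -31 of 18.1% of clustered windows (16.9 to 19.4%), against 29.9% of single-site windows (27.8 to 32%). It preceded 27.1% of 5′-most sites (24.6 to 29.7%) and 13.9% of 3′-most sites. A match to these letters is a description and no proof of a used element.

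In most genes with the motif, only some of the clustered sites had it in range. In the 116 genes the motif started a median of 21 nt before the 5′-most site and 42 nt before the 3′-most site, and in 35 genes all clustered sites had it in range, against 81 genes in which some did not. The following stretches were taken as examples outside the rule for named genes. They begin with the motif in capitals and hold 2 further capitals, the poly(A) nucleotides after it. In AT2G05540 the first base of the motif is itself a poly(A) site.
ARF1 (AT1G59750, chr1:21984436-21984465, plus strand): AAUAAAauuaugaUaaaucuCcucuugcuu
PAO4 (AT1G65840, chr1:24492990-24493019, plus strand): AAUAAAuaaguuaugcacAucaCauguuag
AT2G05540 (chr2:2034239-2034268, plus strand): AAUAAAauaggUaaguuucguuGacugggc
In ARF1, an auxin response factor, the first site had 0.627 in -4 to +1 (flanks 0.779), and the second, the only one with the motif in range, had 1.10 (flanks 0.801) and 0.844 on average over the motif. In PAO4, a polyamine oxidase, the sites had 0.557 and 0.737 (flanks 0.715 and 0.677), with 1.05 and 1.01 over the motif in the 2 windows. In AT2G05540, a glycine-rich protein, the last of 7 sites, the only one with the motif in range, had 0.786 (flanks 0.832) and 0.814 over the motif. The first 3 sites of that gene were more reactive in -4 to +1 (1.38, 1.05 and 1.32) than the 4 that followed (0.393 to 0.786).

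The motif itself was reactive. Over 116 genes, AAUAAA upstream of clustered sites averaged 0.905 ± 0.307 against 0.752 ± 0.138 in the 10 nt on either side, a difference of 0.153 ± 0.315 (SD), and it was the higher in 81 genes (69.8%). Over 199 single-site genes the difference was 0.144 ± 0.295, with 132 genes higher (66.3%). After base adjustment the motif kept an excess of 0.0856 in clustered genes (SE 0.0285) and of 0.0855 in single-site genes (SE 0.0218). The second A had the highest mean of the 6 letters in clustered genes, 1.06, and the U the lowest, 0.832.

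In predicted structures the sign of the difference between -4 to +1 and the flanks depended on the window ends. Unpaired probabilities were computed with ViennaRNA from the sequence with the reactivities as soft constraints. A window cut to 100 nt leaves its ends without partners, and the mean over clustered genes was 0.791 at -50 and 0.859 at +49. The 10 nt at each end were then left out, which was chosen after seeing the data. In -4 to +1 the excess over the flanks was 0.0132 ± 0.158, with 619 of 1163 genes (53.2%) above 0. At the poly(A) nucleotide it was 0.0295 ± 0.239. The difference of -28 to -17 was then -0.00276 ± 0.117 (SD, n = 1163 genes). By position, the mean was 0.516 at -1, 0.517 at 0, 0.527 at +1 and 0.538 at +2, against 0.488 ± 0.0767 in the flanks without the ends. With the ends included, the differences were -0.00913 ± 0.156 for -4 to +1, -0.0250 ± 0.116 for -28 to -17 and 0.00726 ± 0.239 for the poly(A) nucleotide. All of these were small beside the spread over genes. Folded from sequence alone and without the ends, they were 0.00284, -0.00848 and 0.0205 in the same order. In single-site genes the differences without the ends were 0.0241 ± 0.260 for -4 to +1 and 0.0703 ± 0.382 for the poly(A) nucleotide with reactivities. For -4 to +1, 960 of 1827 single-site genes (52.5%) lay above 0. The correlation of the scores with the unpaired probabilities from sequence alone, over the 100 nt of a window, had a median of 0.0368 over clustered genes.

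Removal of proteins was compared on the clustered sites in both tables, 574 windows of 252 genes (16.3% of the clustered windows). The score of -4 to +1 averaged 0.823 ± 0.208 in deproteinized RNA and 0.806 ± 0.213 in vivo (SD over 252 genes). Relative to the flanks this was 0.0448 ± 0.2 in deproteinized RNA and 0.0436 ± 0.212 in vivo, a difference of 0.00117 ± 0.241 for deproteinized minus in vivo. For -28 to -17 the excess was 0.0525 ± 0.171 in deproteinized RNA and 0.0561 ± 0.183 in vivo, a difference of -0.00355 ± 0.180. For the poly(A) nucleotide it was 0.0681 ± 0.457 in deproteinized RNA and 0.0855 ± 0.426 in vivo, a difference of -0.0175 ± 0.582. The mean differences were small beside the spread over genes, and no replicate profile is there to test them.

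In deproteinized RNA, 145 of the 252 genes lay above the flanks in -4 to +1 (57.5%), where 57.6% of all 576 genes of that table did so, and 163 in -28 to -17 (64.7%), against 67.2% of all. In vivo, 140 (55.6%) and 146 (57.9%) of the same 252 genes did so, against 52.2% and 56% of all 3338 genes. Nothing is read from these shares about clustered sites. Gene by gene the conditions were only loosely related. The correlation of the 100 scores of a window between conditions had a median of 0.152 over genes (5th to 95th percentile -0.0764 to 0.361) and was above 0 in 214 of 252 genes. The recurring score filled a median of 21 nucleotides of the deproteinized and 12 of the in vivo windows.

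**Figure D5:**
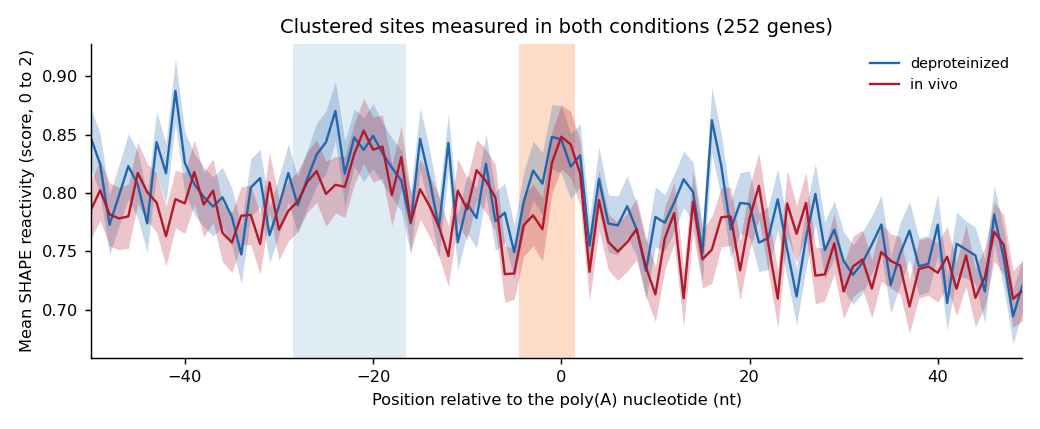
Mean SHAPE reactivity (score) against position relative to the poly(A) nucleotide for clustered sites measured in both conditions (252 genes). Bands are the SE over genes, blue shading is -28 to -17 and orange shading -4 to +1. At position 0 the means are 0.846 in deproteinized RNA and 0.848 in vivo.

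Neighbouring poly(A) nucleotides were read in the same way after deproteinization. Where the window of the neighbour was also in both conditions, its nucleotide is counted as an own site too. The own site averaged 0.846 ± 0.459, the other sites 0.817 ± 0.418 and nucleotides at no site 0.788 ± 0.112 in deproteinized RNA (SD, n = 252 genes). In vivo, the same windows gave 0.848 ± 0.433, 0.844 ± 0.441 and 0.770 ± 0.113. The other sites were the higher in 122 of 252 genes (48.4%) in deproteinized RNA and in 128 of 252 (50.8%) in vivo. Over all 1163 clustered genes in vivo the share was 49%.

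Values of single genes in both conditions are given as a description. ERF4 and AT4G00030 were taken for the highest and lowest in vivo values of all clustered genes. A less extreme value in deproteinized RNA can follow from that choice, so no difference between conditions is read from them. ERF4 averaged 0.623 in deproteinized RNA and 0.613 in vivo for -4 to +1 minus flanks, but its 2 sites differed in opposite directions. The first had 0.512 in deproteinized RNA against 0.915 in vivo, and the second 0.734 in deproteinized RNA against 0.311 in vivo. Its poly(A) nucleotides scored 2 and 1.47 in deproteinized RNA against 0.635 and 0 in vivo. AT4G00030 had -0.205 in deproteinized RNA and -0.457 in vivo, and its 2 poly(A) nucleotides scored 0.971 and 1.24 in deproteinized RNA against 0.0762 and 0.209 in vivo. The 2 shared sites of ACT2 had 0.146 and 0.0454 in deproteinized RNA against -0.132 and -0.0878 in vivo. HOG1 had 5 shared sites with a mean of 0.0117 in deproteinized RNA and of -2.36e-05 in vivo, and the sign of the site was the same in 3 of them.

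The 8 genes with most sites in both tables gave the following. RD21A, a cysteine protease, had 8 shared sites with medians of -0.0696 in deproteinized RNA and -0.119 in vivo for -4 to +1 minus flanks. ACBP6, an acyl-CoA-binding protein, had 7 with 0.0229 in deproteinized RNA and 0.0453 in vivo. PIP1B, an aquaporin of the plasma membrane, had 7 with -0.0151 in deproteinized RNA and 0.157 in vivo, and its first site was the highest in both, with 1.05 in deproteinized RNA and 0.971 in vivo.

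AGP16, an arabinogalactan protein, had 7 shared sites with medians of -0.0153 in deproteinized RNA and -0.0481 in vivo. IAA16, a repressor of auxin responses, had 7 with -0.00672 in deproteinized RNA and -0.129 in vivo, and its poly(A) nucleotides had a median score of 0.636 in deproteinized RNA against 0.250 in vivo. RCAR3, an abscisic acid receptor, had 7 with 0.201 in deproteinized RNA and -0.119 in vivo. The kelch repeat protein AT3G59940 had 6 with 0.159 in deproteinized RNA and 0.205 in vivo, and the zinc finger protein AT1G20110 had 5 with 0.118 in deproteinized RNA and 0.0738 in vivo. In each of these 8 genes the deproteinized and in vivo ranges of the sites overlapped, and the direction from the flanks was the same in both conditions at 5 of 8, 5 of 7, 6 of 7, 5 of 7, 5 of 7, 4 of 7, 4 of 6 and 3 of 5 shared sites, in the order given.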

How the data were processed

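Per the labels and the study's methods, the authors filtered and trimmed the reads (FastQC 0.11.5, cutadapt 1.14), mapped them with HISAT2 2.1.0 to TAIR10, kept uniquely mapped reads, merged the replicates of a condition, counted RT-stops of reads across or downstream of poly(A) sites and deposited a reactivity score per nucleotide. The methods cite a published normalization, and the deposited scores run between 0 and 2. Scores were scaled within each window, which removes differences of level between windows. The splicing tables were not used. The windows were placed on TAIR10.1 (RefSeq), with nucleotide 51 as position 0 (nucleotide 50 was an alternative) and minus-strand windows read on the reverse strand. The 2 windows of 1 gene without a gene model were left out of results that need strand or sequence. Windows were averaged per gene, and with 1 merged profile per condition no test was run. Named genes were those with most sites, with the highest and lowest differences, with most sites in both tables, and examples of the keyword lists. The members and lists were chosen with earlier results of these data known. Folding used ViennaRNA 2.7.2 at 37 °C (Deigan slope 1.8, intercept -0.6, scores divided by 2). The region summary was tested on simulated data. All values were computed in Python (version 3.11.15, with NumPy 2.4.6 and SciPy 1.17.1) and drawn with Matplotlib 3.10.9.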

Additional observations from a re-analysis of the deposited data

How the results depend on the processing

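Of 160 values under other settings, 147 kept the sign of the reported value and 13 had the opposite sign. Among these 13 were 5 small differences that changed by less than their 95% interval over genes, so no direction is read from them. They were 1 of clustered minus single sites and 1 between the 5′-most and 3′-most clustered sites. The other 3 were of deproteinized minus in vivo RNA in -4 to +1. The settings chosen after seeing the data were base-adjusted scores, windows with few nucleotides at the recurring score, windows without 6 or more A in +1 to +10, flanks without other sites, and folding without the window ends.

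For clustered sites alone, the excess of -4 to +1 (0.0252) was 0.0110 with the recurring score treated as missing, 0.0105 as a median over genes, 0.0149 with position 0 at nucleotide 50, 0.0358 with the 5′-most window of each gene and -0.000328 for neighbours under 10 nt away. The excess of -28 to -17 (0.0258) was 0.00960 with the recurring score missing. That of the poly(A) nucleotide (0.0439) was 0.00568 as a median and -0.00483 for neighbours under 10 nt away. The excess of the other sites in the window (0.0411) was -0.0109 as a median. AAUAAA was present in 1.76% of windows when searched in -28 to -17, in place of 5.19% in the wider range. The unpaired probability of -4 to +1 minus flanks (-0.00913) was -0.0242 without reactivities and 0.0132 with flanks that leave out the window ends.

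For clustered minus single sites, -4 to +1 (-0.00692) gave 0.0118 with medians and -0.0324 for neighbours under 10 nt away, -28 to -17 (-0.0155) gave 0.00188 with medians, and the poly(A) nucleotide (-0.0233) gave 0.124 with medians, -0.0720 for neighbours under 10 nt away and -0.0869 in windows with few nucleotides at the recurring score. For clustered sites minus sites 25 to 99 nt apart, restriction to neighbours under 10 nt away gave -0.0368 for -4 to +1 (-0.0149 otherwise) and -0.00571 for -28 to -17 (-0.0293 otherwise). At the poly(A) nucleotide (-0.0502) the values were 0.00534 with medians, -0.00206 with position 0 at nucleotide 50 and -0.0242 when shares of scores of at least 1.2 were compared. The values with medians compare classes that differ in the number of windows averaged per gene, so no direction is read from them. The cause of the changes listed here was not tested. The depth behind a score is unknown, so counting error could not be given. No paired analysis was possible because the replicates of a condition were merged before deposit.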
